A study of Chlorocebus aethiops with 36 samples.

Results

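The lectins and scavenger receptors of the liver sinusoid are described here by 10 genes: STAB1, STAB2, LYVE1, MRC1, CLEC4G, CLEC4M, CLEC1B, FCN2, FCN3 and FCGR2B. The 10 genes were chosen with earlier results of these data known. For these genes, all probe sets whose platform annotation named only 1 of the symbols were taken, whatever their measured values. This gave 18 probe sets of the 54675 on the array, of which 54613 were tested and 62 were the array maker's controls. STAB1 had 4 probe sets, FCN2 had 3, STAB2, CLEC4M and LYVE1 had 2 each, and the other 5 genes had 1. The probe set with the highest mean of a gene is called its representative below.

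Liver RNA of 12 male African green monkeys was measured on a human expression array (HG-U133 Plus 2.0). The anti-miR-33 arm (6 animals) received an oligonucleotide that binds and blocks the microRNA miR-33, and the control arm (6 animals) received a control anti-miR, both injected under the skin at 5 mg/kg, more often in the first 2 weeks than later. Each animal gave 3 biopsies: at baseline (week -5, untreated, on normal chow), at week 4 of treatment on normal chow, and at week 12 of treatment after 8 weeks on a diet high in carbohydrate with moderate cholesterol. Arms of the baseline arrays were taken from the animal identifiers. There was no uninjected group at the later times, so time, injections, earlier biopsies and, at week 12, the diet cannot be told apart in the changes from baseline. The biopsies are whole liver tissue and hold many cell types. The probes were designed on human transcripts, so differences are taken between arrays for 1 probe set. Means of different probe sets serve to choose the representative and to say which probe sets are dim, and not to rank genes by abundance.

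Liver sinusoidal endothelial cells line the blood channels between the plates of hepatocytes. They have pores and no continuous basement membrane, and they take up waste molecules from the blood through scavenger receptors, C-type lectins and an Fc receptor. Several of these receptors are also found on macrophages, on lymphatic endothelium, on platelets or on B cells, and the ficolins are secreted lectins that start the lectin pathway of complement.

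All values are log2 expression as deposited, and a difference of 1 on this scale is a factor of 2. Pairs of the 36 arrays correlated across probe sets with Pearson r between 0.971 and 0.993. Hepatocyte markers averaged 13.48 at baseline, 13.45 at week 4 and 13.46 at week 12 over 12 genes. The week 12 array of control animal 5 stood apart at 12.83, against 13.22 for the next lowest of the 36, and it was lowest on 11 of the 12 genes. Without it the member probe sets called below were 11 at week 4 and 7 at week 12, in place of 11 and 8, where 25% (12.7% lower) and 11.5% (6.57% lower) of all probe sets were called in that fit, the lost call being that of LYVE1 at week 12 (-0.33, adjusted p = 0.0576, limma). RNA quality was read from control probe sets for GAPDH and ACTB, as their 3′ signal minus their 5′ signal. It averaged 2.57 ± 0.43 over the 12 baseline arrays, 1.94 ± 0.41 over those of week 4 and 1.83 ± 0.16 over those of week 12 (SD). In the labels the identifiers of the week 4 arrays form a number run of their own, apart from that of baseline and week 12, so this run and week 4 cannot be told apart. The label of 1 week 4 array (control animal 1) gives the week 12 diet.

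The clearest pattern was a lower level of most of these genes after baseline, in both arms. At week 4 the representatives of FCN2, FCGR2B, CLEC4G, STAB2, STAB1, MRC1 and LYVE1 fell, with differences between -1.33 (FCN2) and -0.46 (LYVE1) on the log2 scale. At week 12 FCN2, CLEC4G, FCGR2B, STAB1, STAB2 and LYVE1 were lower than at baseline, with FCN2 at -1.47 and CLEC4G at -1.35. FCN3 and CLEC1B did not pass the test at either time, and CLEC4M was slightly higher at week 4. In whole tissue, fewer cells of a type and less RNA per cell cannot be told apart.

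Counted by probe set, 9 of 18 were lower and 2 of 18 higher at week 4 than at baseline (limma, Benjamini-Hochberg adjusted p under 0.05 over all 54613 probe sets, arms pooled). Over all probe sets 25.1% were called in this comparison, 12.7% lower and 12.3% higher. At week 12, 8 of 18 were lower than at baseline and 0 of 18 were higher, where 12.3% of all probe sets were called, 7.18% lower and 5.15% higher. An unadjusted p under 0.05 was reached there by 9 of 18, the ninth being FCN3, and by 12688 of all. The median difference of the 10 representatives was -0.63 at week 4 and -0.60 at week 12, against -0.004 and -0.003 over the representatives of all 19775 genes. Both comparisons use the same 12 baseline arrays, so their calls are not independent. Of the 18 probe sets, 12 had a mean at or above the median of all probe sets (4.458) and 6 lay below it. Values with RNA quality taken into account are given after the single genes.

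**Figure D1:**
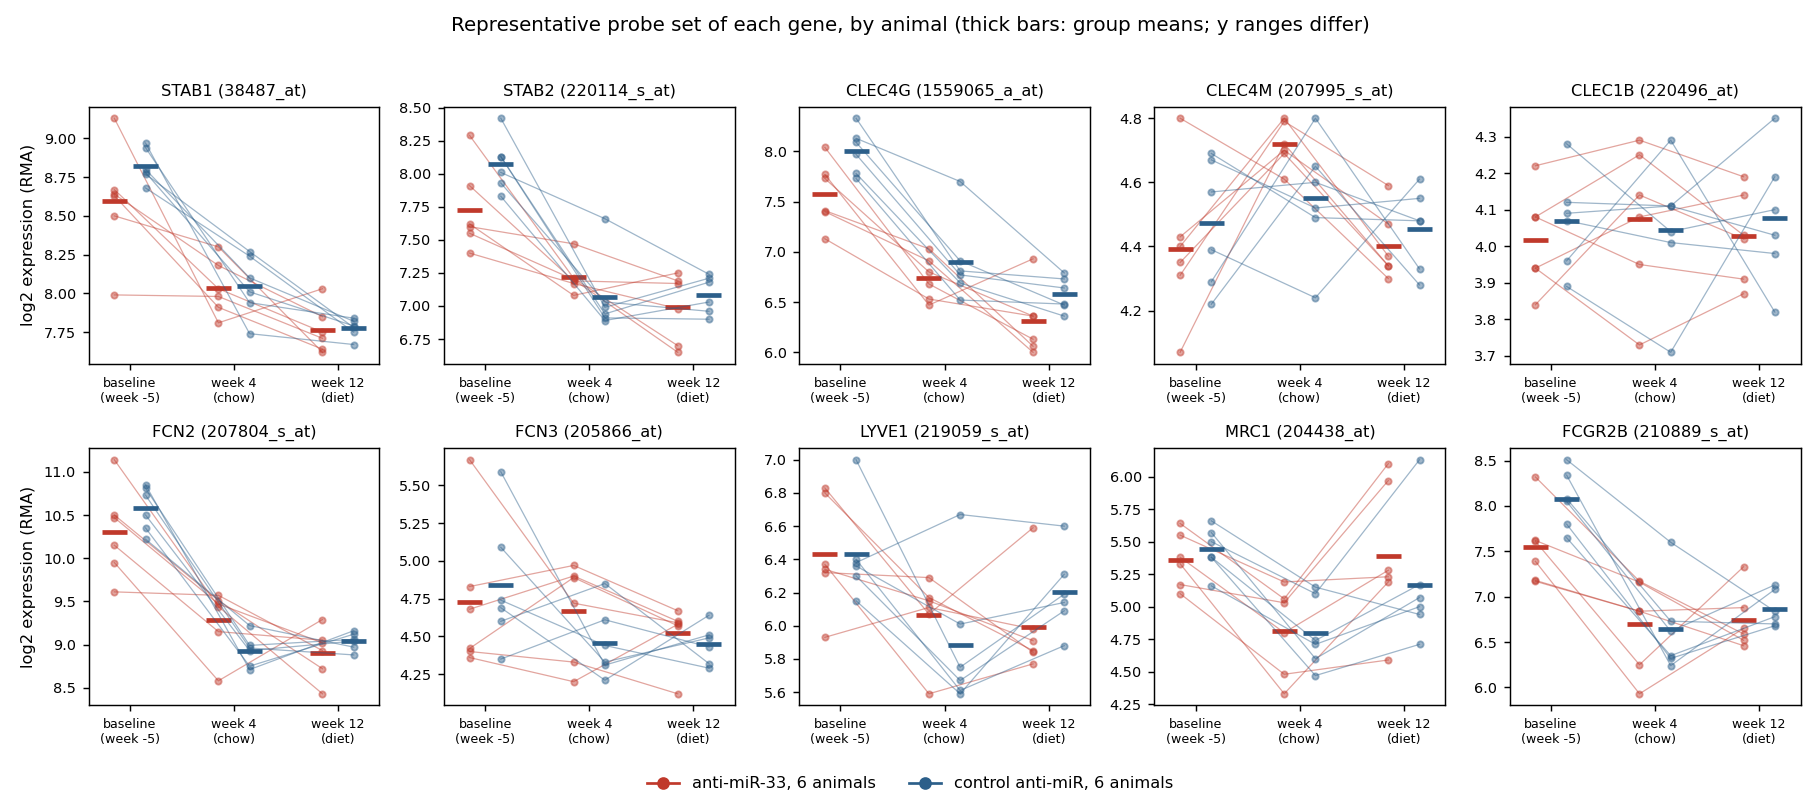
Log2 expression (y, its range differs between panels) of each gene's representative probe set at the 3 times (x), with 6 anti-miR-33 animals (red, left) and 6 control animals (blue, right). Thin lines join the arrays of 1 animal and thick bars are group means. For FCN2 all 12 arrays of week 4 and all 12 of week 12 lie below the lowest baseline array at 9.61, while CLEC1B shows no common direction.

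STAB1 (stabilin-1) is a large endocytic receptor of sinusoidal endothelium and of some macrophages that takes up modified lipoproteins and the matrix protein SPARC. In anti-miR-33 animals its representative 38487_at had a lowest, median and highest value of 7.99, 8.64 and 9.13 (baseline), 7.81, 8.01 and 8.30 (week 4), and 7.62, 7.73 and 8.03 (week 12). In control animals the same values were 8.68, 8.79 and 8.97 (baseline), 7.74, 8.06 and 8.27 (week 4), and 7.67, 7.79 and 7.84 (week 12). In the control arm every later array lay below every baseline array, and in the anti-miR-33 arm a single low baseline array overlapped with the later ones. The share of all probe sets separated so within 1 arm was not computed, so this is a description only. Week 4 minus baseline was -0.67 ± 0.08 (SE, adjusted p = 4.99e-08 by limma) and week 12 minus baseline was -0.94 ± 0.08 (adjusted p = 7.22e-11), each lower in 12 of 12 animals. STAB1 fell further between the later times, with week 12 minus week 4 at -0.27 ± 0.08 (adjusted p = 0.0126) and 11 of 12 animals lower.

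The second STAB1 probe set, 204150_at, showed larger differences, -1.27 ± 0.11 at week 4 and -1.44 ± 0.11 at week 12 (adjusted p = 2.89e-10 and 4.82e-11, limma). After each group's mean was subtracted, 38487_at and 204150_at correlated at Pearson r = 0.71 over the 36 arrays, which is a description of arrays they share. The other STAB1 probe sets, 1555319_at and 1555320_a_at, had means of 4.13 and 3.70, below the median of all probe sets, and differed from baseline by -0.05 and 0.07 at week 4 and by -0.03 and -0.04 at week 12, none of them called. With 38487_at they correlated at r = -0.32 and 0.12.

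STAB2 (stabilin-2) is the main receptor for clearance of hyaluronan from the blood and is known as a marker of sinusoidal endothelium in liver, spleen and lymph node. In anti-miR-33 animals 220114_s_at had a lowest, median and highest value of 7.40, 7.61 and 8.29 (baseline), 7.08, 7.20 and 7.47 (week 4), and 6.65, 7.08 and 7.25 (week 12). In control animals it had 7.83, 8.07 and 8.42 (baseline), 6.89, 6.97 and 7.66 (week 4), and 6.90, 7.11 and 7.24 (week 12). Over both arms the week 12 arrays and the baseline arrays did not overlap, whereas 2 of 12 week 4 arrays reached the baseline range. Only 0.192% of all probe sets had every week 12 array below every baseline array.

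For STAB2, week 4 minus baseline was -0.76 ± 0.09 (adjusted p = 5.9e-08, limma) and week 12 minus baseline was -0.86 ± 0.09 (adjusted p = 1.01e-08), with 12 of 12 animals lower each time. Its second probe set, 237567_at, moved less, by -0.40 ± 0.07 at week 4 and -0.27 ± 0.07 at week 12 (adjusted p = 3.9e-05 and 0.00507, limma), and the week 12 call was lost with RNA quality as a covariate (-0.30, adjusted p = 0.108). The STAB2 probe sets had the same direction at both times, yet after group means were subtracted they hardly correlated over the arrays (r = 0.09).

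LYVE1 is a hyaluronan receptor best known from lymphatic endothelium and also present on sinusoidal endothelium and some macrophages. In anti-miR-33 animals 219059_s_at had a lowest, median and highest value of 5.93, 6.36 and 6.83 (baseline), 5.59, 6.13 and 6.29 (week 4), and 5.77, 5.88 and 6.59 (week 12). Control animals had 6.15, 6.37 and 7.00 (baseline), 5.59, 5.71 and 6.67 (week 4), and 5.88, 6.17 and 6.60 (week 12). The ranges of the 3 times overlapped in both arms. Week 4 minus baseline was -0.46 ± 0.11 (adjusted p = 0.00221, limma; lower in 10 of 12 animals).

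At week 12 LYVE1 was lower by 0.34 ± 0.11 relative to baseline, close to the threshold (adjusted p = 0.039, limma; lower in 9 of 12 animals). This call was lost in 8 of the 12 fits that left out 1 animal, in which the difference ran between -0.39 and -0.28; these 8 left out anti-miR-33 animals 1, 2, 3 or 6 or control animals 1, 3, 5 or 6. The second LYVE1 probe set, 220037_s_at, has a mean of 3.84 and was not called at either time (-0.23 at week 4, adjusted p = 0.0815; 0.04 at week 12, adjusted p = 0.882). The LYVE1 probe sets correlated over arrays at r = 0.68 after group means were subtracted.

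MRC1, the mannose receptor, clears glycoproteins and collagen fragments and is carried by sinusoidal endothelium and by macrophages. In anti-miR-33 animals 204438_at had a lowest, median and highest value of 5.10, 5.36 and 5.64 (baseline), 4.33, 4.92 and 5.19 (week 4), and 4.59, 5.26 and 6.10 (week 12). In control animals it had 5.16, 5.44 and 5.66 (baseline), 4.47, 4.73 and 5.15 (week 4), and 4.71, 5.04 and 6.13 (week 12). Of the 12 week 4 arrays, 9 lay below every baseline array, and the week 12 values spread over a range that held the baseline range. MRC1 differed from baseline by -0.60 ± 0.13 at week 4 (adjusted p = 0.000712, limma; lower in 12 of 12 animals), and -0.12 ± 0.13 at week 12 (adjusted p = 0.655).

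Between week 4 and week 12, MRC1 rose by 0.48 ± 0.13 (adjusted p = 0.00943, limma) and was higher in 11 of 12 animals. It was the only 1 of 18 member probe sets called higher in this comparison, where 3 of 18 were called lower. Of all probe sets 16.7% were called (7.6% higher, 9.08% lower). By sign alone, 7 of the 18 lay above 0 and 11 below. LYVE1 on 220037_s_at differed by 0.26 (adjusted p = 0.0552, limma) and FCN2 on 1559577_at by 0.16 (adjusted p = 0.055). Some genes outside the 10, picked for the pattern of MRC1, were also lower at week 4 and higher at week 12 than at week 4. They include the sinusoidal genes DNASE1L3 (-0.63, then 0.45, adjusted p = 0.015 for the second) and CRHBP (-0.33, then 0.25, adjusted p = 0.0331), and the macrophage marker CD14 (-0.26, then 0.31, adjusted p = 0.00305, limma). The sinusoidal gene FLT4 went the other way (0.29, then -0.23). Between the later times 3 of 19 sinusoidal genes were higher and 1 lower, and 2 of 13 macrophage markers were higher and 0 lower. Of 15 general endothelial markers 0 were higher and 5 lower. Over all genes 9.58% were higher and 9.82% lower. The highest week 12 values of MRC1 were 6.13 in control animal 2, 6.10 in anti-miR-33 animal 1 and 5.97 in anti-miR-33 animal 5, and the other 9 lay between 4.59 and 5.28.

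CLEC4G (LSECtin) is a C-type lectin of liver and lymph node sinusoidal endothelium that binds glycans of cells and viruses. In anti-miR-33 animals 1559065_a_at had a lowest, median and highest value of 7.13, 7.57 and 8.04 (baseline), 6.47, 6.74 and 7.03 (week 4), and 6.00, 6.25 and 6.93 (week 12). Control animals had 7.73, 8.03 and 8.33 (baseline), 6.52, 6.79 and 7.70 (week 4), and 6.36, 6.56 and 6.79 (week 12). At week 12 every array lay below all baseline arrays of both arms, a separation seen in 0.192% of all probe sets. At week 4 every array lay below the baseline arrays of its own arm, and control animal 4, at 7.70, fell within the baseline range of the anti-miR-33 arm. For separation within 1 arm no share over all probe sets was computed. The differences from baseline were -0.97 ± 0.11 at week 4 and -1.35 ± 0.11 at week 12 (adjusted p = 1.47e-08 and 4.82e-11, limma), each with 12 of 12 animals lower. CLEC4G also fell between the later times, by 0.38 ± 0.11 (adjusted p = 0.0126; 11 of 12 animals lower).

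CLEC4M (L-SIGN) is a neighbour of CLEC4G in the same lectin gene cluster and is another glycan receptor of sinusoidal endothelium. Its representative 207995_s_at ran between 4.07 and 4.80 at baseline, between 4.24 and 4.80 at week 4, and between 4.28 and 4.61 at week 12, so the 3 times overlapped. The week 4 value was higher than baseline by 0.20 ± 0.07 (adjusted p = 0.0206, limma; 8 of 12 animals higher), and week 12 was lower than week 4 by 0.21 ± 0.07 (adjusted p = 0.0261; 10 of 12 animals lower). Both calls are fragile: the first was lost without anti-miR-33 animal 3 or control animal 2 or 4 (adjusted p between 0.0646 and 0.0764), and the second without anti-miR-33 animal 1 or control animal 2 or 4 (adjusted p between 0.0597 and 0.0777). The second probe set, 210481_s_at, with a mean of 3.84, was not called (0.10 at week 4, adjusted p = 0.126), and the CLEC4M probe sets correlated at r = 0.10. Neither probe set of CLEC4M was called lower than baseline.

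CLEC1B (CLEC-2) is the receptor for podoplanin on platelets and has also been described in human liver sinusoidal cells. Its single probe set 220496_at had a mean of 4.05, below the median of all probe sets. It ran between 3.84 and 4.28 at baseline, between 3.71 and 4.29 at week 4, and between 3.82 and 4.35 at week 12. The 3 ranges lay on top of each other. The differences from baseline were 0.02 ± 0.06 and 0.01 ± 0.06 (95% confidence intervals -0.11 to 0.15 and -0.12 to 0.14; adjusted p = 0.879 and 0.955, limma). Of 7 platelet markers, PPBP was lower by 0.19 and ITGA2B higher by 0.20 at week 4, and 0 were called at week 12. Over all genes 15.7% were called lower and 12.2% higher at week 4, and 10.2% lower and 6.59% higher at week 12.

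FCN2 (ficolin-2, L-ficolin) is a secreted lectin made in the liver that binds acetylated sugars on microbes. In anti-miR-33 animals 207804_s_at had a lowest, median and highest value of 9.61, 10.31 and 11.14 (baseline), 8.58, 9.46 and 9.57 (week 4), and 8.43, 8.98 and 9.29 (week 12). In control animals it had 10.22, 10.62 and 10.85 (baseline), 8.71, 8.95 and 9.22 (week 4), and 8.88, 9.05 and 9.16 (week 12). With both arms pooled, it was the only representative whose baseline arrays overlapped with those of neither later time, a separation seen at week 4 in 0.308% of all probe sets. Week 4 minus baseline was -1.33 ± 0.12 and week 12 minus baseline was -1.47 ± 0.12 (adjusted p = 2.26e-10 and 5.98e-11, limma), each with 12 of 12 animals lower. The fall at week 4 differed among animals, between 2.14 in control animal 1 and 0.04 in anti-miR-33 animal 5.

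The probe sets of FCN2 did not tell the same story. The second, 208439_s_at, ran between 5.26 and 5.83 at baseline, between 5.50 and 6.54 at week 4, and between 5.15 and 5.87 at week 12. It was higher at week 4 by 0.27 ± 0.09 (adjusted p = 0.0229, limma), a call lost without anti-miR-33 animal 1 or 5 or control animal 4, and it was close to baseline at week 12 (0.03 ± 0.09, adjusted p = 0.9). The third, 1559577_at, has a mean of 3.21 and was not called at either time. After group means were subtracted, 207804_s_at correlated with them at r = -0.17 and 0.19, and the table used here does not show which of the probe sets follows the monkey transcript.

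FCN3 (ficolin-3, H-ficolin), the relative of FCN2 that is made in liver and lung, was measured by 205866_at. In anti-miR-33 animals it ran between 4.36 and 5.67 at baseline (median 4.55), between 4.20 and 4.97 at week 4 (median 4.81), and between 4.12 and 4.67 at week 12 (median 4.59). In control animals it ran between 4.35 and 5.59 at baseline (median 4.72), between 4.21 and 4.85 at week 4 (median 4.39), and between 4.29 and 4.64 at week 12 (median 4.46). The highest baseline values stood above all later ones, and the rest overlapped. The differences were -0.22 ± 0.12 at week 4 and -0.30 ± 0.12 at week 12 (adjusted p = 0.172 and 0.0973, limma), with 7 and 9 of 12 animals lower, so FCN3 did not pass the test.

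FCGR2B is the inhibitory low-affinity receptor for immunoglobulin G. On sinusoidal endothelium it takes up small immune complexes, and on B cells it restrains activation. In anti-miR-33 animals 210889_s_at had a lowest, median and highest value of 7.17, 7.50 and 8.32 (baseline), 5.93, 6.84 and 7.17 (week 4), and 6.46, 6.62 and 7.33 (week 12). Control animals had 7.65, 8.07 and 8.51 (baseline), 6.24, 6.49 and 7.60 (week 4), and 6.68, 6.81 and 7.13 (week 12). In control animals no later array reached the baseline range, and in anti-miR-33 animals the upper end of the later values touched the lower baseline values.

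For FCGR2B, week 4 minus baseline was -1.14 ± 0.14 and week 12 minus baseline was -1.01 ± 0.14 (adjusted p = 1.85e-07 and 2.98e-06, limma), with 12 of 12 animals lower each time. Week 12 minus week 4 did not pass the test (0.13 ± 0.14, adjusted p = 0.557, 95% confidence interval -0.15 to 0.42). Near relatives can share probes with this gene. Probe sets annotated to FCGR2C gave smaller differences at week 4, -0.33 (211395_x_at), -0.28 (210992_x_at) and -0.07 (211396_at), of which the first 2 were called, and FCGR2A gave -0.27 on 203561_at, which was called, and 0.05 on 1565673_at, which was not. Of 6 markers of B cells, which also carry FCGR2B, 0 were lower at either time and 1 was higher at week 4 (BLK, 0.23). Over all genes 15.7% were called lower and 12.2% higher at week 4, and 10.2% lower and 6.59% higher at week 12. The mean level of the 6 over the 3 times was 4.67, 4.69 and 4.63, near the median of all probe sets (4.458). The part of B cells in the FCGR2B change was not tested.

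**Figure D2:**
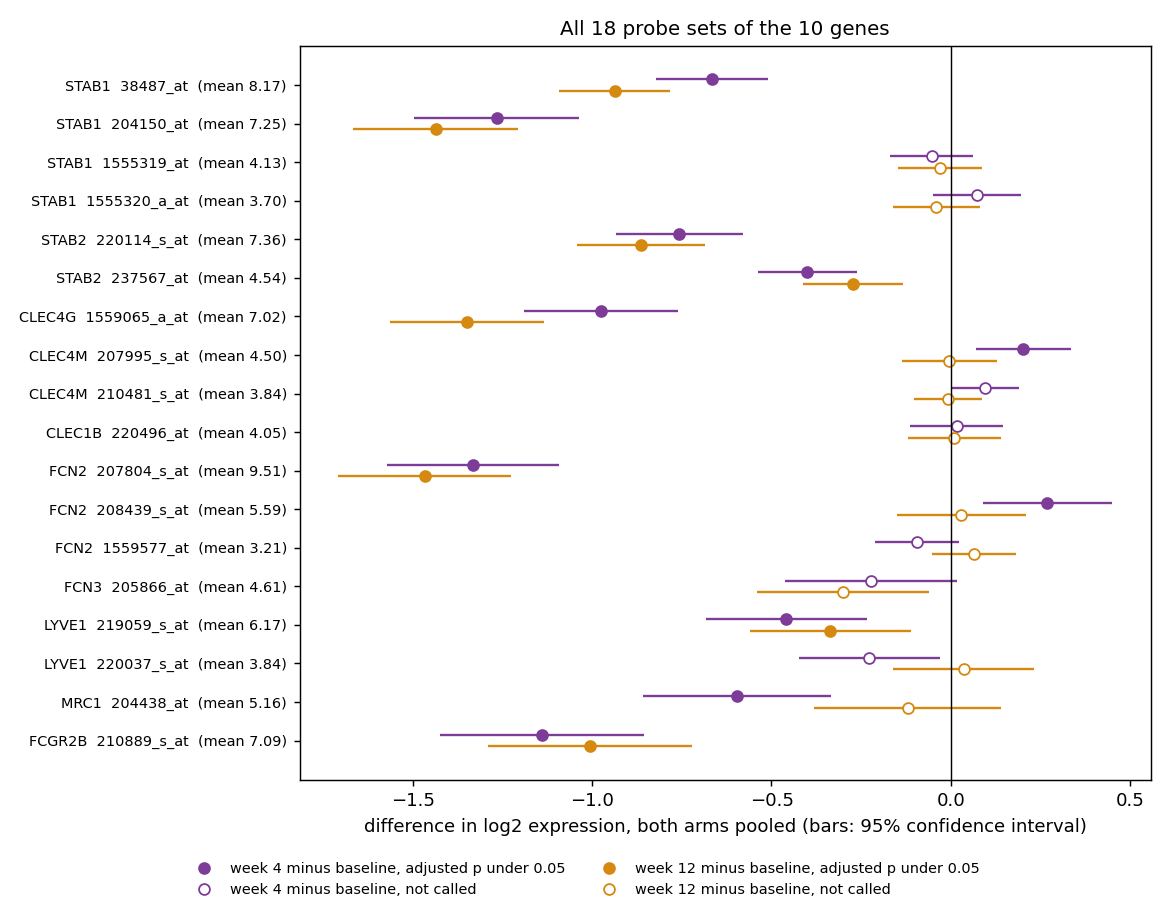
Difference from baseline in log2 expression (x) with its 95% confidence interval for all 18 probe sets (rows, with the mean over all arrays), for week 4 (purple) and week 12 (orange), both arms pooled. Filled points passed an adjusted p of 0.05. The STAB1 and STAB2 probe sets that passed lie on the same side, while FCN2 has 207804_s_at at -1.33 and 208439_s_at at 0.27 at week 4.

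RNA quality moved with the same contrasts, so the differences were also computed with it in the model. With the 3′ minus 5′ difference as a covariate, FCN2 differed from baseline by -1.29 ± 0.15 at week 4 and by -1.42 ± 0.17 at week 12 (adjusted p = 4.16e-07 and 2.69e-06, limma). CLEC4G, STAB2, STAB1 and FCGR2B also kept their calls at both times with the covariate, at -0.82, -0.67, -0.51 and -0.93 at week 4 and at -1.17, -0.76, -0.75 and -0.76 at week 12. LYVE1 lost its call at both times (-0.32, adjusted p = 0.12; -0.17, adjusted p = 0.705), and MRC1 kept that at week 4 (-0.74, adjusted p = 0.00174).

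In a comparison added after the data were seen, only the 4 baseline arrays within the range of the later 3′ minus 5′ values were kept, 1 of the anti-miR-33 arm and 3 of the control arm. Then 6 of 18 probe sets were lower at week 4 and 5 of 18 at week 12 (limma), with 0 higher. Of all probe sets 3.42% were called in this fit at week 4, 1.79% lower, and 0.218% at week 12, 0.198% lower. FCN2 stood at -1.20 and -1.33, CLEC4G at -0.72 and -1.09, STAB2 at -0.51 and -0.62, and STAB1 at -0.35 and -0.62 at week 4 and week 12, all called. For STAB1 at week 4 this was close to the threshold and smaller than with all baseline arrays (-0.67). The arms are weighted equally, so the 1 anti-miR-33 baseline array kept, of animal 1, counts as much as the 3 control arrays together. It was the lowest of its arm at baseline on STAB1 (7.99), STAB2 (7.40) and CLEC4G (7.13). The part of this 1 array and that of RNA quality in the smaller values cannot be told apart. FCGR2B was called at week 4 (-1.06, adjusted p = 0.00827) and not at week 12 (-0.92, adjusted p = 0.088), MRC1 lost its week 4 call (-0.74, adjusted p = 0.0609), and LYVE1 lost both (-0.39 ± 0.17 and -0.27 ± 0.17, adjusted p = 0.194 and 0.919), at values close to those with all baseline arrays and with a larger error. FCN3, not called before either, came to -0.01 ± 0.15 and -0.09 ± 0.15 with these arrays, against -0.19 and -0.26 with the covariate.

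**Figure D3:**
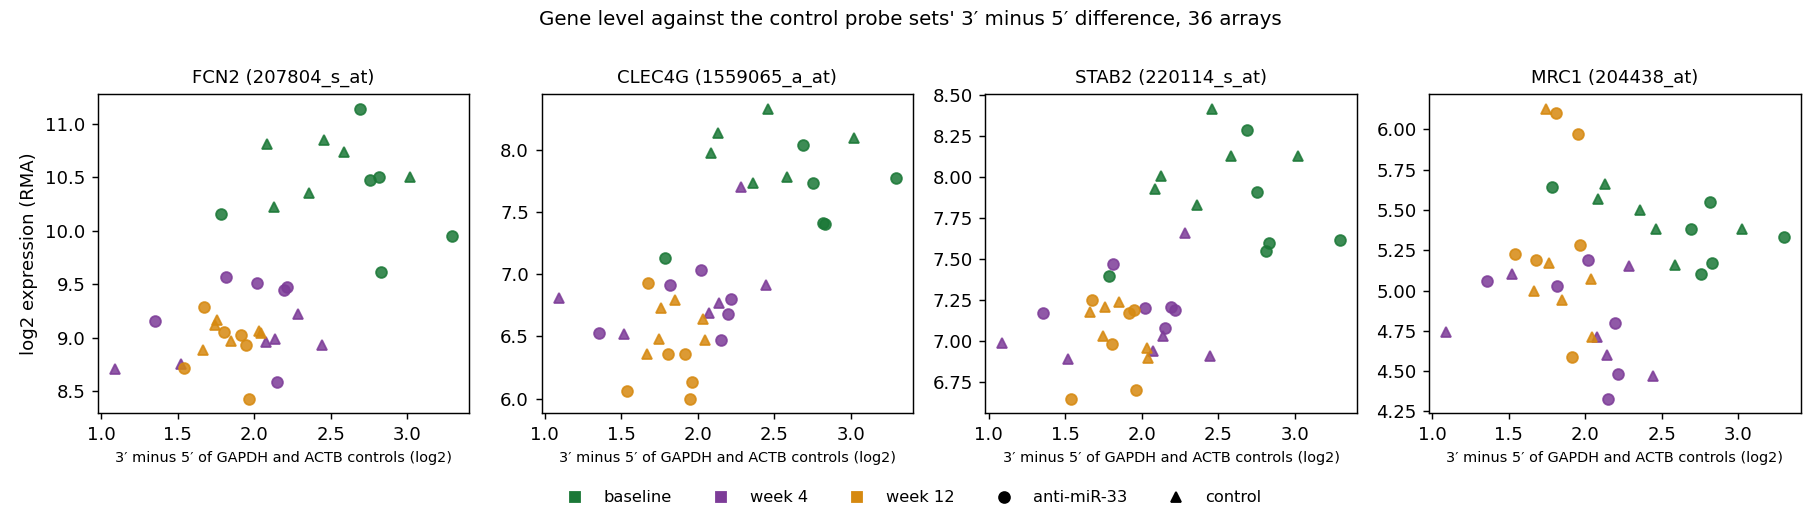
Log2 expression (y) of FCN2, CLEC4G, STAB2 and MRC1 on the 36 arrays against the 3′ minus 5′ log2 difference of the control probe sets (x), coloured by time, with circles for anti-miR-33 and triangles for control. Baseline arrays reach 3.30 on the x axis and later ones 2.45. For FCN2 all baseline values lie above all later ones at any x, so the overlap in x is no separate check for this gene. The same holds for CLEC4G and STAB2 at week 12.

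Between the arms the comparison asks whether blocking miR-33 moved these genes. No member probe set passed the test at any time: 0 of 18 at baseline, at week 4 and at week 12, where 0%, 0% and 0.00183% of all probe sets were called (limma). An unadjusted p under 0.05 was reached by 5, 2 and 0 of the 18, and by 2002, 3205 and 1465 of the 54613. At baseline the anti-miR-33 mean was lower on 9 of 10 representatives and equal for LYVE1, on animals that were all untreated then. Over all genes it was lower on 9641 of 19775. The 10 genes share arrays, so their signs are not independent.

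At baseline FCGR2B averaged 7.55 ± 0.43 in anti-miR-33 animals and 8.07 ± 0.32 in control animals (SD, n = 6 each), a difference of -0.52 ± 0.21 (SE, adjusted p = 0.999, limma). CLEC4G averaged 7.58 ± 0.33 in anti-miR-33 animals and 8.01 ± 0.23 in control animals (difference -0.43 ± 0.16). STAB2 averaged 7.73 ± 0.32 in anti-miR-33 animals and 8.08 ± 0.21 in control animals (difference -0.35 ± 0.13). These gaps have unadjusted p-values of 0.0158, 0.01 and 0.011 and did not survive the adjustment over all probe sets. The same baseline arrays had a 3′ minus 5′ difference of 2.70 ± 0.49 in anti-miR-33 animals and 2.44 ± 0.34 in control animals, whose part in the gaps was not tested.

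At week 4 the largest arm difference among the representatives was that of FCN2, with 9.29 ± 0.38 in anti-miR-33 animals and 8.93 ± 0.18 in control animals (difference 0.36 ± 0.18, unadjusted p = 0.047, adjusted p = 0.847, limma). At week 12 it was CLEC4G, with 6.31 ± 0.34 in anti-miR-33 animals and 6.58 ± 0.17 in control animals (difference -0.27 ± 0.16, adjusted p = 0.999). In both cases the values of the arms overlapped. The 95% confidence intervals at week 12 were -0.59 to 0.05 for CLEC4G, -0.49 to 0.22 for FCN2, -0.36 to 0.17 for STAB2, -0.24 to 0.22 for STAB1 and -0.55 to 0.29 for FCGR2B. Differences of that size could therefore not be detected or excluded with 6 animals in each arm.

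At week 4 the mean change from baseline was smaller in the anti-miR-33 arm for each gene that fell, and no such difference between arms passed the test. The arm difference in change was below 0 for 0 of 10 representatives and for 9276 of all 19775 genes. The genes share arrays, so these signs are not independent. FCN2 changed by -1.02 ± 0.56 in anti-miR-33 animals and by -1.65 ± 0.38 in control animals, and the difference between these changes was 0.63 ± 0.24 (SE). STAB2 changed by -0.51 ± 0.35 in anti-miR-33 animals and by -1.01 ± 0.38 in control animals (difference 0.50 ± 0.18), and FCGR2B by -0.85 ± 0.53 and -1.43 ± 0.39 (difference 0.58 ± 0.28) in the same order of arms. All 3 had an adjusted p of 0.998 (limma), 0 of 18 probe sets were called where 0% of all were, and 3 of 18 had an unadjusted p under 0.05, as had 2271 of all. These differences contain the baseline gaps given above, since they use the same baseline arrays.

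At week 12 the arm difference in change from baseline was smaller than at week 4 for some genes and not for others, and none passed the test. FCN2 changed by -1.40 ± 0.78 in anti-miR-33 animals and by -1.54 ± 0.26 in control animals, and CLEC4G by -1.27 ± 0.42 in anti-miR-33 animals and by -1.43 ± 0.15 in control animals. The arm difference in change was 0.14 for FCN2 at week 12 and 0.63 at week 4. For MRC1 it was 0.30 at week 12 and 0.10 at week 4, for LYVE1 -0.21 and 0.18, and for STAB1 0.22 at both (38487_at). The arm differences in change from baseline to week 12, and from week 4 to week 12, gave 0 of 18 calls each, with 0% of all probe sets called in either (limma); 0 and 2 of the 18 had an unadjusted p under 0.05, against 1290 and 2242 of all.

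**Figure D4:**
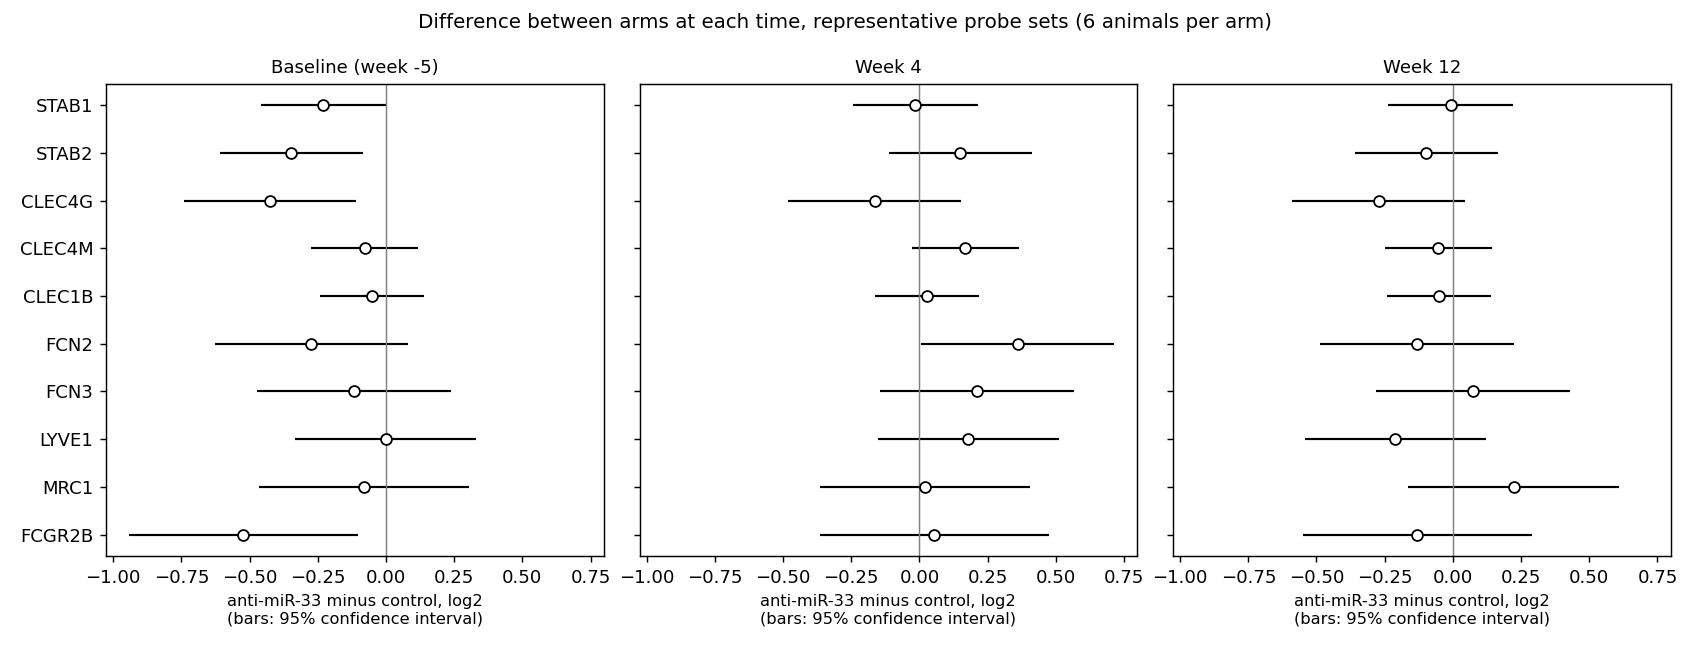
Anti-miR-33 minus control in log2 expression (x) with the 95% confidence interval for the representative of each of the 10 genes (rows) at baseline, week 4 and week 12 (panels), with 6 animals per arm. Of 10 points, 9 lie below 0 at baseline, 2 at week 4 and 8 at week 12. Over all 19775 genes, 9641, 9331 and 9641 lie below 0 at these times. No difference passed the adjusted test at any time.

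The genes did not all vary together among animals of 1 group. After group means were subtracted, CLEC4G correlated over the 36 arrays with LYVE1 at r = 0.76, with STAB2 at r = 0.76 and with FCGR2B at r = 0.73, and LYVE1 with FCGR2B at r = 0.75. FCN2 correlated with STAB2 at r = 0.64 and with FCGR2B at r = 0.58. MRC1 lay between r = -0.23 and 0.16 with every other member, and CLEC4M between -0.13 and 0.24. These are descriptions: the points share arrays, animals and RNA quality.

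One week 4 array carried many of the high values. On the 9 probe sets that were lower at week 4, control animal 4 had the highest value of its group at week 4 on 8, and anti-miR-33 animal 4 had the highest of its group at week 12 on 8. Without the first of these arrays, an alternative added after the data were seen, 12 of 18 probe sets were called at week 4, of which 10 were lower, and 25.3% of all probe sets were called, 12.8% lower. At week 12 it was 8 of 18, all lower, where 12.7% of all were called, 7.38% lower.

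Outside the 10 genes, the genes that varied most alike among the animals were sought among 13627 others by Pearson r over the 36 arrays. Each time's mean was subtracted first, so r leaves out the change over time and a like gene need not share it: TMSB4X, below, differed from baseline by -0.20 at week 4, where STAB2 differed by -0.76. CLEC4G was most like DAB2 (r = 0.82), RELN (0.80) and LDB2 (0.79), and FCGR2B like DAB2 (0.81), F8 (0.80) and DNASE1L3 (0.80). STAB2 was most like LDB2 (0.75), TMSB4X (0.74) and DNASE1L3 (0.70). STAB1 was most like ENG (0.73), a co-receptor for transforming growth factor beta on endothelium, then CETP (0.61), a plasma lipid transfer protein, and PCDH17 (0.61). FCN2 was most like VMO1 (0.67), NOSTRIN (0.65) and CETP (0.64), and LYVE1 like JAM2 (0.68), DNASE1L3 (0.68) and ICAM1 (0.66). For MRC1 (NUBP1, 0.65), CLEC4M (DENND1C, 0.62), CLEC1B (CEACAM3, 0.62) and FCN3 (PIP5K1C, 0.53) the closest genes were no endothelial markers of the lists used here.

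Other lectins and scavenger receptors moved in both directions. Of 39 measured, 8 were lower and 4 higher at week 4, and 7 lower and 3 higher at week 12, with medians of 0.02 and -0.01. Over all 19775 genes 15.7% were called lower and 12.2% higher at week 4, and 10.2% lower and 6.59% higher at week 12. COLEC10 and COLEC11, secreted collectins of the lectin pathway, differed by -1.05 ± 0.10 and -0.65 ± 0.09 at week 4, and CD93, an endothelial and myeloid lectin-like receptor, by -0.76 ± 0.10 (adjusted p = 1.08e-09, 8.39e-07 and 6.11e-07, limma). MASP2, a protease that ficolins and collectins carry, was higher at week 4 by 0.40 ± 0.06 (adjusted p = 1.61e-05).

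Among further sinusoidal endothelial genes, of 19 measured, 11 were lower and 2 higher at week 4, and 9 lower and 0 higher at week 12, with medians of -0.33 and -0.18. Beside these counts stand 15.7% lower and 12.2% higher of all genes at week 4, and 10.2% and 6.59% at week 12. OIT3, a secreted protein used as a sinusoidal marker, fell by 0.94 ± 0.13 at week 4. MAF, a transcription factor of sinusoidal endothelium, fell by 0.88 ± 0.10. DAB2, an endocytic adaptor, fell by 0.82 ± 0.12, and F8, coagulation factor VIII, which these cells make, fell by 0.81 ± 0.09 (adjusted p between 1.05e-08 and 2.06e-06 for these 4, limma). At week 12 they were at -0.70, -0.78, -0.77 and -0.69 relative to baseline.

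Markers of endothelium in general were lower too. Of 15 measured, 9 were lower at week 4 and 12 at week 12, with 0 higher at either time and medians of -0.31 and -0.36. The share of all genes called lower was 15.7% at week 4 and 10.2% at week 12. TIE1, an endothelial receptor kinase, fell by 1.27 ± 0.16 at week 4, PECAM1, a junction protein, by 0.74 ± 0.09, VWF, the clotting protein von Willebrand factor, by 0.69 ± 0.13, and ENG by 0.65 ± 0.10 (adjusted p between 1.9e-07 and 8.99e-05, limma). The mean level of the 15 ranged between 5.83 and 6.27 at baseline, between 5.58 and 6.12 at week 4 and between 5.47 and 5.86 at week 12. The part of such a shift in the members' changes was not tested.

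Some markers of other cell types of the biopsy also changed, in part as far as the members. The counts below are to be read beside those of all genes. These were 15.7% lower and 12.2% higher at week 4, and 10.2% lower and 6.59% higher at week 12. Of 13 macrophage markers 5 were lower at week 4 (CD163 by 0.36, VSIG4 by 0.27, CD14 by 0.26 and C1QC by 0.23 among them) and 0 higher, and at week 12 3 were lower and 1 higher, and the ranges of their mean level were 6.21 to 6.69 (baseline), 6.18 to 6.53 (week 4) and 6.23 to 6.72 (week 12). Of 13 stellate cell markers 6 were lower at each time and 0 higher (RELN by 0.82, COL3A1 by 0.70, COLEC11 by 0.65 and BAMBI by 0.50 at week 4), and at week 12 COLEC11 and RELN were at -1.03 and -0.91 relative to baseline, next to -0.94 for STAB1. RELN is also the only 1 of 5 lymphatic markers that was called. Of 12 hepatocyte markers 0 were called at either time (limma; APOB, at -0.11, was the only 1 with an unadjusted p under 0.05 at week 4, 0.0477, followed by AMBP, at -0.13, with 0.0614). Of 4 erythroid markers AHSP was higher by 0.24 at week 4, and 2 were lower at week 12 (HBB at -1.37 and ALAS2 at -0.62), when their mean level was 6.99, against 7.47 at baseline. The part of these other cell types in the members' changes was not tested.

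**Figure D5:**
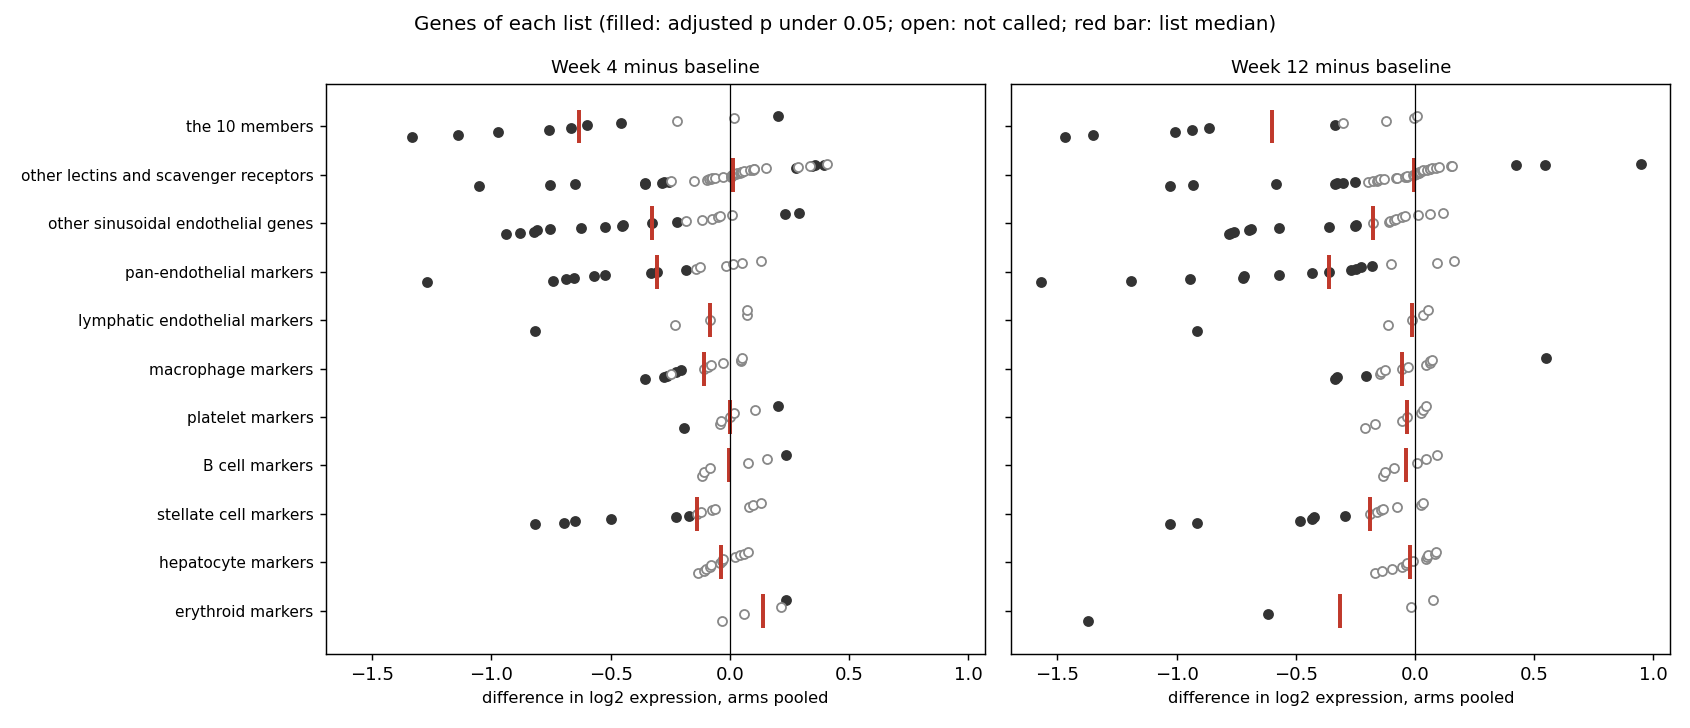
Difference from baseline in log2 expression (x) at week 4 (left) and week 12 (right) for the genes of each list (rows), both arms pooled, 1 point per gene. Filled points passed an adjusted p of 0.05, and red bars are list medians: -0.63 and -0.60 for the 10 genes described here, -0.31 and -0.36 for general endothelial markers, and -0.04 and -0.02 for hepatocyte markers.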

How the data were processed

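Liver RNA of 36 biopsies was hybridised to 1 array each. The authors deposited log2 values, credited per the submitters' processing notes to RMA, which corrects background, normalizes between arrays and summarises probes. The RMA version is not given in the sources used here, nor is it stated whether 1 run took all arrays. A shift shared by most transcripts would have been removed. Values carry 2 decimals, and the number of arrays limits precision.

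Gene names came from the platform annotation (41091 tested probe sets with 1 gene, 1801 with several, 11721 unnamed). With limma 3.58.1 in R 4.3.3, a model of the 6 groups was fitted to all 54613 probe sets without a filter on low values, and arrays of 1 animal were treated as a correlated block (correlation 0.085). The p-values are two-sided, adjusted by Benjamini and Hochberg's method over all probe sets, and called under 0.05. Pairing follows the animal identifiers in the labels. In a check on 200 genes, not on all probe sets, 12 of 12 week 4 arrays were most like their own animal's other arrays. The procedure was tested on simulated data. Errors beside differences between times or arms are standard errors, and those beside group means or mean changes within an arm are SDs over 6 animals.

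The members, the 10 gene lists (1 representative per gene) and the tests were chosen with earlier results of these data known. Named list genes were the 4 called genes of largest change at week 4, or the 2 of smallest p. Genes singled out otherwise, such as HBB, CD36, MBL2, MASP1 and LYZ, and the arrays named for their values, were chosen after their values were seen. Sequences were not used here.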

Additional observations from a re-analysis of the deposited data

Results flagged for a closer look

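Single arrays stood apart from the other 5 of their group in 13 of 108 groups examined (18 probe sets in 6 groups), where chance gives about 5.4, and the groups share arrays. An array was counted where its gap to the nearest other, divided by the range of the group, exceeded Dixon's 95% critical value for 6 samples. Control animal 4 at week 4 accounted for 3 of them, all high: 7.66 for STAB2 (220114_s_at, next 7.03), 7.70 for CLEC4G (next 6.91) and 7.60 for FCGR2B (next 6.73). Anti-miR-33 animal 1 accounted for another 3. It was low for LYVE1 (219059_s_at) at week 4, at 5.59 (next 6.07), and for FCN3 at week 12, at 4.12 (next 4.57), and high for STAB1 on 1555319_at at week 4, at 4.48 (next 4.22).

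The other 7 lay in other animals. LYVE1 (219059_s_at) was high in anti-miR-33 animal 4 at week 12, at 6.59 (next 5.98), and in control animal 1 at baseline, at 7.00 (next 6.40). Anti-miR-33 animal 5 was high for STAB2 (220114_s_at) at week 4, at 7.47 (next 7.21), and low for STAB1 on 1555319_at at week 12, at 3.81 (next 4.13). FCN2 on 208439_s_at was 6.54 in control animal 5 at week 4 (next 5.82). FCN3 was 5.67 in anti-miR-33 animal 3 at baseline (next 4.83), and MRC1 was 6.13 in control animal 2 at week 12 (next 5.17).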

How the results depend on the processing

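The counts of member probe sets called were 11 at week 4 against baseline, 8 at week 12 against baseline and 4 between the later times. In these comparisons 25.1%, 12.3% and 16.7% of all probe sets were called. Among 12 other settings (10 planned, 2 added after the data were seen), only the use of the 4 baseline arrays matched on RNA quality moved a count by over 1.5 times, to 6 at week 4 and 5 at week 12, with fewer baseline arrays in the fit. Without the replicate block the counts were 11, 7 and 4, and with the animal as a fixed replicate block 11, 8 and 5, and the pairing changed no other call than LYVE1 at week 12 (adjusted p = 0.0596 without it) and 220037_s_at of LYVE1 between the later times (adjusted p = 0.0369 with the fixed block). Leaving out each animal in turn gave 9 to 12, 7 to 8 and 3 to 6. Of all 54613 probe sets, those fits called 11510 to 13198, 5320 to 7091 and 7380 to 8554. No setting evaluated for the arms called a member between them. The 2 added settings were not evaluated for the arms, and the fixed block gives no arm difference at a single time. Of 23 called differences of single probe sets, 14 kept their call in every fit run, and 32 of 547 refits lost a call, most often that of LYVE1 at week 12. None of the 23 changed sign. The number of arrays limits the precision, and 6 of 18 probe sets lay below the median level of the array.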

Other observations

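At week 12 a few genes of the lists moved the other way from the members. CD36, the fatty acid and lipoprotein scavenger receptor, was higher than at baseline by 0.95 ± 0.23 (SE, adjusted p = 0.00407, limma), with means of 6.73 at week 12 and 5.78 at baseline. MBL2, mannose-binding lectin, was higher by 0.55 ± 0.17 (adjusted p = 0.0303) and its protease MASP1 by 0.43 ± 0.13 (adjusted p = 0.0183). LYZ, lysozyme of myeloid cells, was higher by 0.55 ± 0.13 (adjusted p = 0.00203).

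Haemoglobin beta (HBB) averaged 10.55 at week 12 and 11.92 at baseline, a difference of -1.37 (adjusted p = 5.92e-05, limma), while at week 4 it was at 12.13 (0.21 above baseline, adjusted p = 0.535).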
